A study of Homo sapiens with 12 samples.

Results

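Human breast cancer cells of the lines HCC1937 and MDA-MB-231 were compared after both had been exposed to an aqueous extract of the plant Kalanchoe pinnata. The comparison takes 6 of the 12 poly-A RNA libraries of the study, chosen by their titles: E31, E32 and E33 from HCC1937 with 66 µg/mL of extract, and E7, E8 and E9 from MDA-MB-231 with 140 µg/mL. The other 6 libraries, 3 controls of each line without extract, were used only to tell which line differences were already there. Both lines are labelled as wild type, and every exposure lasted 72 h. MDA-MB-231 grew in DMEM and HCC1937 in RPMI 1640, so line, medium and extract concentration cannot be told apart in any value below. Each line is 1 cell line from 1 tumour and stands for no other tumour. The labels do not say whether the 3 libraries of a group came from separate cultures, so p-values measure the spread between these libraries only. A line name in one of the other labels counts upward from sample to sample, and groups were taken from the titles.

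Both lines come from triple-negative tumours, a class without receptors for estrogen or progesterone and without extra copies of HER2. MDA-MB-231 is known as a motile line of mesenchymal character: it lacks the junction protein E-cadherin, makes the filament protein vimentin and secretes cytokines. HCC1937 carries a BRCA1 mutation and keeps a basal epithelial character, with keratins of the basal layer and tight junctions and desmosomes between cells. Such identity programmes are held by cell-type transcription factors, while stress and early response programmes such as the heat shock response can be switched within hours.

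The 6 extract libraries held 18447327 to 31337261 counts, and 3 counts in 1 library correspond to 0.113 to 0.213 counts scaled to the library size (CPM), a floor that covers counting error only. Library E7 stood apart from E8 and E9. Mitochondrially encoded genes took 10.7% of its counts against 4.63% and 4.78%, and cytosolic ribosomal protein genes 13.3% against 7.33% and 7.29%. The biological coefficient of variation of the MDA-MB-231 extract group was 0.296 with E7 and 0.0369 without it, close to the 0.0409 to 0.0449 of the other groups. Counts over gene lists are therefore given with all 6 libraries and without E7. Long transcripts of low GC content, over 8 kb and at most 42% GC, also differed: they took 0.619 to 0.630% of counts in HCC1937 and 0.757 to 1.09% in MDA-MB-231 with extract, against 2.58 to 2.97% in the controls. A fit with a length and GC offset per library was run as well, and is given for some of the genes and lists below.

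The lines remained far apart under extract. Of 13259 genes tested, 4111 (31%) were higher and 4604 (34.7%) lower in HCC1937 at an adjusted p under 0.05 (edgeR quasi-likelihood test, Benjamini-Hochberg over all genes tested). The difference was at least 2-fold for 2656 (20%) and 3104 (23.4%). Without E7 the counts were 5504 (41.5%) higher and 5810 (43.8%) lower. Of the 8715 genes called with all 6 libraries, 8681 were called the same way without E7, 34 were no longer called and 0 were called the opposite way. Control libraries of the lines differed at 6136 (44.4%) and 6131 (44.3%) of 13834 genes.

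Large differences between the control libraries were mostly found again under extract, in libraries that share no sample with the controls. Of 2910 genes at least 2-fold higher in HCC1937 controls and also tested with extract, 2457 (84.4%) were called higher with extract and 24 were called lower. Of 2928 genes at least 2-fold lower, 2540 (86.7%) were called lower with extract and 53 higher. Across 13103 genes the log2 line differences without and with extract had a Pearson r of 0.937 and a Spearman rho of 0.857, given as a description since genes are not independent replicates. Genes that stood apart from this diagonal are taken up programme by programme below.

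**Figure D1:**
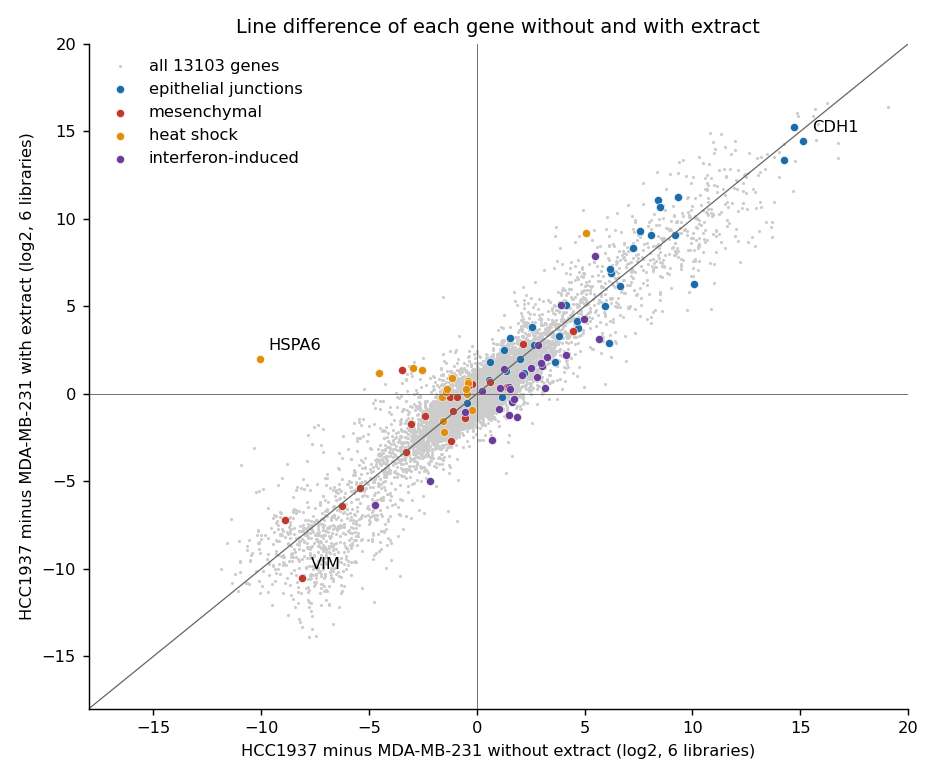
Each point is a gene. The horizontal axis gives the log2 difference HCC1937 minus MDA-MB-231 in the control libraries, the vertical axis the same difference in the extract libraries, and the oblique line marks equal differences. Most of the 13103 genes lie near that line, junction genes (blue) at the upper right and VIM at the lower left, while the heat shock gene HSPA6 moved from -10.08 to 2.01. Values beyond about 12 on either axis belong mostly to genes with no or almost no counts in a line, and their size depends on the fit.

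Epithelial junction genes were mostly higher in HCC1937, as they had been in the controls. Of 32 junction genes tested, 30 were higher and 0 lower in HCC1937 (background 31% and 34.7%), with a median log2 difference of 4.59 against -0.06 over all genes. Without E7, 30 were higher and 1 lower in HCC1937 (background 41.5% and 43.8%). These background shares also hold for the counts with extract in the lists that follow. The control libraries gave 31 higher and 1 lower. Here and in the lists that follow, a gene that passed the filter on low counts only through the line in which it is on had to differ, so these counts describe the lists and are no test of them. CDH1, which encodes E-cadherin (chr16:68737292-68835537 in the RefSeq annotation of GRCh38.p14, the source of all positions here), had 0 counts in E7, E8 and E9 and stood at 118, 118 and 125 CPM in E31, E32 and E33, at least 2501-fold higher. In the controls it had been at 0 counts in MDA-MB-231 and 186 CPM in HCC1937. RAB25, an epithelial trafficking GTPase, and GRHL2, a transcription factor of the epithelial state, also had 0 counts in every MDA-MB-231 extract library. RAB25 stood at 208, 207 and 208 CPM in E31, E32 and E33, at least 4323-fold higher. GRHL2 stood at 55.6, 54.3 and 60.3 CPM in E31, E32 and E33, at least 1181-fold higher. The desmosomal cadherin DSC3 had 0 counts in MDA-MB-231 and 12.8, 12.8 and 14 CPM in E31, E32 and E33. None of these 4 genes overlapped between the lines, as 4714 (35.6%) of all genes did not with HCC1937 higher. Not every junction gene was off in MDA-MB-231. The adhesion molecule EPCAM was at 15.1, 6.75 and 7.87 CPM in E7, E8 and E9 and 92.6, 96.9 and 94.1 CPM in E31, E32 and E33 (log2 difference 3.30 ± 0.30 (SE), adjusted p = 1.18e-04). P-cadherin, CDH3, was at 0.782, 1.11 and 0.447 CPM in E7, E8 and E9 and 243, 254 and 251 CPM in E31, E32 and E33 (log2 difference 8.31 ± 0.31 (SE), adjusted p = 3.80e-06).

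Basal keratins followed the same pattern. Of 14 basal epithelial genes, 13 were higher and 0 lower in HCC1937, and the median log2 difference was 9.14, or 7.46 with the 3 genes at 0 in a line set to their bound. Without E7, 13 were higher and 1 lower in HCC1937. KRT5, a keratin of the basal cell layer (chr12:52514575-52520394), had 0 counts in E7, E8 and E9 and stood at 71.9, 75.4 and 71.6 CPM in E31, E32 and E33, at least 1519-fold higher. KRT17, a keratin of stressed and basal epithelium, was at 2.21, 0.921 and 1.48 CPM in E7, E8 and E9 and 992, 1012 and 1013 CPM in E31, E32 and E33 (log2 difference 9.43 ± 0.33 (SE), adjusted p = 3.15e-06). TRIM29, a gene of basal and squamous epithelium, was at 0.0711, 0 and 0.224 CPM in E7, E8 and E9 and 386, 380.4 and 393 CPM in E31, E32 and E33. The near-identical keratins KRT6A and KRT6B can share reads. KRT6A had 3 counts in all of the MDA-MB-231 extract libraries and 150.3, 146 and 146 CPM in E31, E32 and E33. KRT6B had 0 counts there and 9.67, 10.1 and 9.24 CPM in E31, E32 and E33, at least 202-fold higher.

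Luminal genes were also higher in HCC1937: 8 of 8 tested, with and without E7, at a median of 2.44. The list mixes 2 kinds of level. KRT8, a keratin of simple epithelium, was abundant at 1121, 715 and 699 CPM in E7, E8 and E9 and 5731, 5722 and 5709 CPM in E31, E32 and E33 (log2 difference 2.79 ± 0.22 (SE), adjusted p = 6.11e-05). ESR1, the estrogen receptor gene, was near the detection limit in MDA-MB-231 and low in HCC1937, at 0, 0.0767 and 0 CPM in E7, E8 and E9 and 2.02, 2.01 and 2.04 CPM in E31, E32 and E33. With 2 counts in MDA-MB-231, its ratio was 63.2 (95% counting interval 17.2 to 527). ERBB2, which encodes HER2, was at 44.0, 86.6 and 90.1 CPM in E7, E8 and E9 and 149.5, 139.5 and 156 CPM in E31, E32 and E33 (log2 difference 1.03 ± 0.28 (SE), adjusted p = 0.0153). PGR, the progesterone receptor gene, did not pass the filter on low counts, with 29 counts in MDA-MB-231 and 0 in HCC1937.

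Genes of the cornified layer and the alarmins, which epithelia release at barrier stress, separated the lines widely. Of 17 tested, 15 were higher and 1 lower in HCC1937, and without E7 15 and 1, and the median was 8.10 or 7.26 with 5 genes at their bound. KRT13, a keratin of the upper layers of stratified epithelium (chr17:41500981-41505612), had 1 count in the MDA-MB-231 extract libraries and stood at 1816, 1795 and 1856 CPM in E31, E32 and E33. Its ratio was 113910.0 (95% counting interval 20444 to 4499230.0). S100A9, a subunit of calprotectin (chr1:153357854-153361023), had 0 counts in MDA-MB-231 and stood at 158, 159 and 158 CPM in E31, E32 and E33, at least 3302-fold higher. Its partner S100A8 was far lower in HCC1937, at 0.648, 1.00 and 1.09 CPM in E31, E32 and E33, again with 0 counts in MDA-MB-231. S100A14, in the same S100 gene cluster (chr1:153614255-153616325), was at 0.285, 0.460 and 0.0895 CPM in E7, E8 and E9 and 393, 371 and 389 CPM in E31, E32 and E33 (log2 difference 10.39 ± 0.38 (SE), adjusted p = 3.76e-06). SPRR1B, a protein of the cornified envelope, had 0 counts in MDA-MB-231 and 41.0, 42.3 and 37.1 CPM in E31, E32 and E33. S100A7 had 3 counts in all extract libraries together, so that the list was not uniformly on in HCC1937.

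Kallikrein-related peptidases, secreted proteases of epithelia that lie side by side on chromosome 19, were among the genes named for the largest differences. KLK10 (chr19:51012739-51020097) had 0 counts in MDA-MB-231 and stood at 556, 545 and 545 CPM in E31, E32 and E33, at least 11433-fold higher. KLK5 (chr19:50943303-50953038) had 0 counts and 445, 416 and 446 CPM in E31, E32 and E33, at least 9069.5-fold higher. KLK6 (chr19:50958631-50969591) had 2 counts in MDA-MB-231 and stood at 273, 275 and 276 CPM in E31, E32 and E33, a ratio of 8589 (95% counting interval 2377 to 70923). That rule also named 4 genes of other function with 0 counts in MDA-MB-231. SFRP1, a secreted WNT antagonist, stood at 375, 368 and 378 CPM in E31, E32 and E33, at least 7776-fold higher. The adhesion molecule CEACAM6 stood at 324, 325 and 315 CPM in E31, E32 and E33, the glutamate transporter SLC1A6 at 233, 231 and 242 CPM in E31, E32 and E33, and the chloride channel ANO1 at 158, 164 and 167 CPM in E31, E32 and E33.

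**Figure D2:**
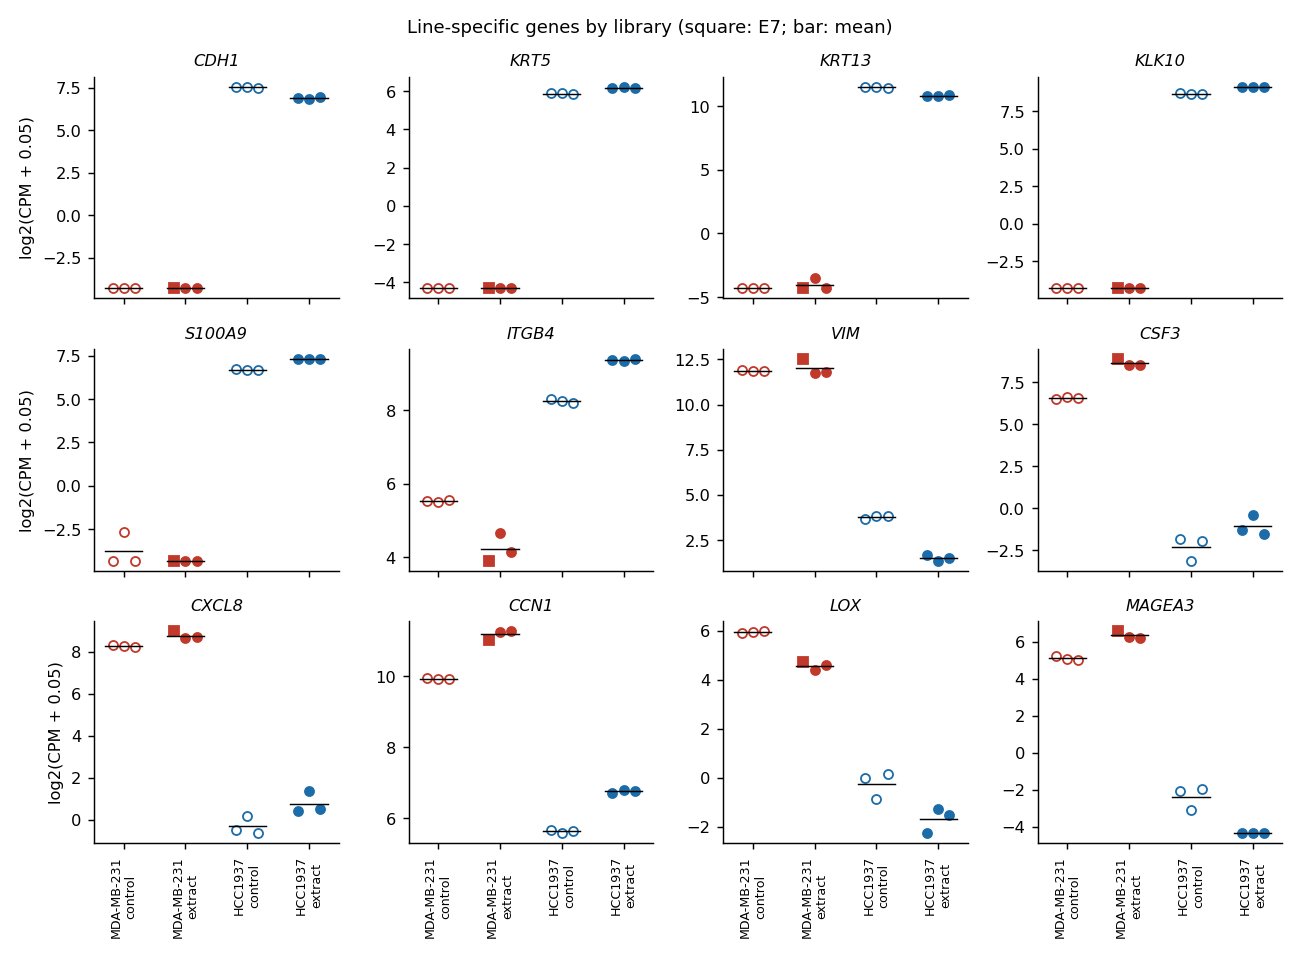
Levels of 12 line-specific genes in all 12 libraries, as log2(CPM + 0.05), for MDA-MB-231 (red) and HCC1937 (blue) without (open) and with extract (filled). Squares mark E7 and bars the mean of 3 libraries. In each panel the extract libraries of the lines do not overlap, and the line that was higher without extract was higher with it. Mean ITGB4 in MDA-MB-231 was 46.3 CPM without and 19.3 CPM with extract.

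The mesenchymal list held genes on both sides under extract, with VIM, ZEB1, LOX and FN1 among those lower in HCC1937. Of 20 genes tested, 7 were higher and 10 lower in HCC1937 (background 31% and 34.7%). The controls gave 5 higher and 15 lower. Without E7, 8 were higher and 11 lower in HCC1937. The median was -0.58 with extract and -1.15 without, and it lay at 0.03 when genes averaging under 5 CPM were left out. VIM, which encodes vimentin (chr10:17228241-17237593), was at 5891, 3455 and 3512 CPM in E7, E8 and E9 and 3.2, 2.53 and 2.75 CPM in E31, E32 and E33 (log2 difference -10.53 ± 0.35 (SE), adjusted p = 2.66e-06). ZEB1, a repressor of epithelial genes, was at 3.98, 4.80 and 6.89 CPM in E7, E8 and E9 and 0.0809, 0.121 and 0.151 CPM in E31, E32 and E33 (log2 difference -5.39 ± 0.39 (SE), adjusted p = 4.38e-05). LOX, which cross-links collagen, was at 26.4, 21.2 and 24.3 CPM in E7, E8 and E9 and 0.162, 0.362 and 0.302 CPM in E31, E32 and E33 (log2 difference -6.39 ± 0.25 (SE), adjusted p = 4.35e-06). All 3 stayed on one side without overlap. Fibronectin, FN1, was also lower in HCC1937 but spread widely in MDA-MB-231, at 43.9, 148 and 147 CPM in E7, E8 and E9 and 9.27, 12.5 and 12.1 CPM in E31, E32 and E33 (log2 difference -3.31 ± 0.49 (SE), adjusted p = 0.00102). The log2 difference of FN1 was -3.70 without E7. The 7 genes higher in HCC1937 went the other way, among them a transcription factor. SNAI1, named here after its values were seen, was higher in HCC1937 with extract, at 16.7, 14 and 12.7 CPM in E7, E8 and E9 and 36.9, 38.1 and 35.3 CPM in E31, E32 and E33 (log2 difference 1.37 ± 0.13 (SE), adjusted p = 1.33e-04), while the controls held 22.1 ± 2.09 CPM in MDA-MB-231 and 2.02 ± 0.388 CPM in HCC1937 (SD, n = 3).

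Cancer-testis genes are germline genes that are silent in most somatic tissue. Of 19 such genes, 7 passed the filter and 7 had 0 counts in every extract library, among them MAGEA1 and PRAME. Those that passed are given by their levels only. MAGEA3 (chrX:152698794-152702347) was at 94.8, 77.4 and 74.0 CPM in E7, E8 and E9 with 0 counts in HCC1937, at least 2082-fold lower there. MAGEA12, its neighbour on the X chromosome (chrX:152733757-152737669), was at 45.6, 50.2 and 52.2 CPM in E7, E8 and E9 with 0 counts in HCC1937. MAGEA10 was at 5.33, 9.74 and 10.2 CPM in E7, E8 and E9, again with 0 counts in HCC1937. MAGEA and XAGE1 copies are near identical, so that the split of reads between copies is uncertain. XAGE1A and XAGE1B together were at 205, 90.9 and 88.9 CPM in E7, E8 and E9 and at most 0.162 CPM in an HCC1937 extract library.

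Genes at a known deletion of MDA-MB-231 checked the titles. CDKN2A, which encodes the inhibitors p16 and p14ARF and is deleted in MDA-MB-231 (chr9:21967752-21995324), had 0 counts in all 6 MDA-MB-231 libraries and stood at 336, 310.1 and 321 CPM in E31, E32 and E33. Its neighbour CDKN2B (chr9:22002903-22009313) had 0 counts in the MDA-MB-231 extract libraries and 33.3, 34.2 and 32.1 CPM in E31, E32 and E33. Both genes were as the titles of the extract libraries call for.

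The coactivator YAP and the TEAD transcription factors drive genes such as CCN1 and CCN2 when cells spread on a stiff surface. Of 17 genes of their list, 4 were higher and 10 lower in HCC1937 (background 31% and 34.7%), and without E7 4 and 13 (41.5% and 43.8%). Their target CCN1 was at 2069.7, 2413 and 2457 CPM in E7, E8 and E9 and 106, 112 and 109.7 CPM in E31, E32 and E33 (log2 difference -4.38 ± 0.15 (SE), adjusted p = 3.00e-06), CCN2 at 430.0, 424 and 443 CPM in E7, E8 and E9 and 18.3, 17.8 and 19.4 CPM in E31, E32 and E33 (log2 difference -4.52 ± 0.11 (SE), adjusted p = 1.36e-06). The difference in CCN1 was as large in the controls, at -4.33. For YAP1 itself the extract libraries held 86.3, 122 and 118 CPM in E7, E8 and E9 and 78.9, 87.7 and 82.9 CPM in E31, E32 and E33 (log2 difference -0.37 ± 0.17 (SE), adjusted p = 0.0903), a difference that did not pass the test with E7 and did without it (adjusted p = 3.35e-10), and whose sign turned under the length and GC offset (0.11, adjusted p = 0.279). TEAD1 was lower in HCC1937, at 34.4, 70.4 and 69.5 CPM in E7, E8 and E9 and 17.2, 15.8 and 17.3 CPM in E31, E32 and E33 (log2 difference -1.78 ± 0.29 (SE), adjusted p = 0.00160). The protease gene PLAU, which encodes urokinase, was at 273, 306 and 323 CPM in E7, E8 and E9 and 136, 138 and 133 CPM in E31, E32 and E33 (log2 difference -1.13 ± 0.12 (SE), adjusted p = 1.95e-04). Among all 24 protease and inhibitor genes tested, 13 were higher and 9 lower in HCC1937, with E7 and without it, against the same background shares.

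How far a line difference had moved under extract was tested over all 12 libraries, as the difference with extract minus the difference without. Of 14133 genes, 4538 (32.1%) had changed, 1630 (11.5%) had moved towards HCC1937 and 2908 (20.6%) towards MDA-MB-231. Without E7 these counts were 3577 (25.3%) and 4763 (33.7%). The median over all genes was -0.16 with the scaling used here (TMM) and -0.05 with another scaling (RLE), and changes are to be read against that shift. Among genes called both in the controls and for the change, 1425 differences had narrowed, 1408 had widened and 1200 had changed sign. Without E7, 2810 had narrowed and 2780 had widened, and with the length and GC offset 2033 and 1685.

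Interferon-induced genes, which many cells switch on upon viral signals, had mostly been higher in HCC1937, and most of their differences moved towards MDA-MB-231. Of 28 tested in the controls, 24 were higher and 4 lower in HCC1937. With extract it was 12 and 7 of 27 (background 31% and 34.7%), and without E7 16 and 7 (background 41.5% and 43.8%). The median was 1.80 in the controls and 0.41 with extract, or 0.80 without E7. For 21 of 28 genes the change towards MDA-MB-231 passed the test, and for 1 the change towards HCC1937 (background 20.6% and 11.5%). Without E7 it passed for 20 and 1 (background 33.7% and 25.3%). IFIT1, an antiviral RNA-binding protein, was at 9.32, 9.63 and 8.54 CPM in E7, E8 and E9 and 7.24, 6.19 and 5.92 CPM in E31, E32 and E33, against 18.3 ± 1.01 CPM in MDA-MB-231 and 57.4 ± 3.48 CPM in HCC1937 (SD, n = 3) in the controls. Its log2 difference moved by -2.16 ± 0.14 (SE), adjusted p = 1.5e-06, from 1.61 to -0.48. The ubiquitin-like ISG15 was at 295, 132 and 132 CPM in E7, E8 and E9 and 243, 244 and 241 CPM in E31, E32 and E33; its difference did not pass the test with E7 (0.41, adjusted p = 0.276) and passed without it (0.88, adjusted p = 1.25e-17). With the length and GC offset ISG15 passed in the opposite direction, lower in HCC1937 (-0.34, adjusted p = 0.0114). IFIT1, lower in HCC1937 in the fit without the offset (adjusted p = 0.0243), did not pass with it (0.11, adjusted p = 0.543). The offset gave 15 and 8 for the list, with a median of 0.83.

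A few interferon-induced genes stood far apart between the lines with extract. MX2, an inhibitor of viral entry into the nucleus, was at 0.142, 0.384 and 0.403 CPM in E7, E8 and E9 and 77.8, 77.6 and 81.3 CPM in E31, E32 and E33 (log2 difference 7.89 ± 0.26 (SE), adjusted p = 2.44e-06), a change of 2.35 ± 0.30 (SE), adjusted p = 1.51e-04 towards HCC1937. SAMD9 was at 0, 0.345 and 0.403 CPM in E7, E8 and E9 and 9.35, 8.24 and 10.8 CPM in E31, E32 and E33 (log2 difference 5.07 ± 0.50 (SE), adjusted p = 1.57e-04). The regulator IRF7 went the other way, at 18.2, 12.7 and 12.3 CPM in E7, E8 and E9 and 0.0405, 0.201 and 0.264 CPM in E31, E32 and E33 (log2 difference -6.33 ± 0.41 (SE), adjusted p = 2.81e-05), against -4.72 in the controls. The list thus held genes specific to either line after the extract.

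Cytokine and early response genes, mostly higher in MDA-MB-231 controls, narrowed in part. Of 22 cytokine and NF-kB genes, 4 were higher and 16 lower in HCC1937 with extract (background 31% and 34.7%), against 4 and 18 in the controls. The median went from -2.95 to -1.62. Without E7 the counts were 5 and 17 (background 41.5% and 43.8%). The change passed the test towards HCC1937 for 9 and towards MDA-MB-231 for 2 of 22 genes (background 11.5% and 20.6%). Without E7 it passed for 13 and 3 (background 25.3% and 33.7%). Some cytokines stayed nearly private to MDA-MB-231. CXCL8, a neutrophil attractant (chr4:73740569-73743716), was at 509, 399.6 and 414 CPM in E7, E8 and E9 and 1.30, 2.49 and 1.40 CPM in E31, E32 and E33 (log2 difference -7.97 ± 0.31 (SE), adjusted p = 4.43e-06). CSF3, the granulocyte growth factor, was at 472, 374 and 374 CPM in E7, E8 and E9 and 0.364, 0.723 and 0.302 CPM in E31, E32 and E33 (log2 difference -9.74 ± 0.33 (SE), adjusted p = 2.91e-06). CSF2, which acts on granulocytes and macrophages, was at 88.8, 47.6 and 46.0 CPM in E7, E8 and E9 and 0.890, 0.603 and 0.151 CPM in E31, E32 and E33 (log2 difference -6.76 ± 0.54 (SE), adjusted p = 6.57e-05). For these 3 cytokines the libraries of the lines did not overlap, which held for 5092 (38.4%) of all genes in this direction. IL1B had come closer, at 59.0, 43.8 and 48.4 CPM in E7, E8 and E9 and 25.9, 28.8 and 25.3 CPM in E31, E32 and E33 against 63.7 ± 3.35 CPM in MDA-MB-231 and 6.30 ± 0.931 CPM in HCC1937 (SD, n = 3) in the controls, and its difference moved by 2.42 ± 0.19 (SE), adjusted p = 4.80e-06. IL6 was at 16.3, 12.8 and 11.2 CPM in E7, E8 and E9 and 14.9, 16.6 and 15.2 CPM in E31, E32 and E33, and its difference did not pass the test with E7 (adjusted p = 0.210) but did without it (0.00406) and under the offset (0.00141). In the controls IL6 had been higher in HCC1937, by 1.15.

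AP-1 and early response genes, which growth and stress signals induce within minutes, moved towards HCC1937 at 14 of 21 genes and towards MDA-MB-231 at 3. Their median went from -2.74 in the controls to -0.85. Under extract 5 genes were higher and 12 lower in HCC1937 (background 31% and 34.7%), and 5 and 15 without E7 (background 41.5% and 43.8%). The change without E7 passed for 15 towards HCC1937 and 5 towards MDA-MB-231. Over all genes 11.5% and 20.6% moved these ways, and 25.3% and 33.7% without E7. JUN was at 314, 576 and 550.2 CPM in E7, E8 and E9 and 143, 141 and 147 CPM in E31, E32 and E33 (log2 difference -1.72 ± 0.25 (SE), adjusted p = 8.85e-04), against 887 ± 40.2 CPM in MDA-MB-231 and 33.2 ± 1.70 CPM in HCC1937 (SD, n = 3) in the controls. DUSP1, a phosphatase that switches off MAP kinases, was at 445, 455 and 433 CPM in E7, E8 and E9 and 47.6, 46.3 and 52.8 CPM in E31, E32 and E33 (log2 difference -3.16 ± 0.11 (SE), adjusted p = 3.36e-06), a change of 2.76 from -5.99. EGR1 went the other way, at 183, 309 and 302 CPM in E7, E8 and E9 and 14.8, 16.8 and 19.2 CPM in E31, E32 and E33 (log2 difference -3.95 ± 0.26 (SE), adjusted p = 3.11e-05), and its difference moved by -1.22 ± 0.25 (SE), adjusted p = 0.00301.

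Glycolysis and hypoxia genes moved mostly one way: 18 of 26 moved towards HCC1937 and 1 towards MDA-MB-231 (background 11.5% and 20.6%). Without E7, 21 and 2 moved (background 25.3% and 33.7%). The controls had 5 higher and 20 lower in HCC1937, the extract libraries 10 and 9, near the background of 31% and 34.7%. Without E7 the counts with extract were 13 and 10 (background 41.5% and 43.8%). With the length and GC offset they were 7 and 12, so the balance between the lines turned. The median line difference with extract was 0.09, 0.19 without E7 and -0.21 with the offset, and it was -0.06 with upper quartile scaling. NDRG1, a gene induced by hypoxia and metal stress, was at 175, 304 and 307 CPM in E7, E8 and E9 and 978, 970.3 and 959 CPM in E31, E32 and E33 (log2 difference 1.90 ± 0.24 (SE), adjusted p = 4.99e-04), while the controls held 829.8 ± 7.59 CPM in MDA-MB-231 and 295 ± 2.20 CPM in HCC1937 (SD, n = 3). ENO2, an enolase, was at 161, 219 and 207 CPM in E7, E8 and E9 and 61.9, 57.4 and 60.6 CPM in E31, E32 and E33 (log2 difference -1.68 ± 0.15 (SE), adjusted p = 1.20e-04), against -3.18 in the controls. CA9, a carbonic anhydrase of hypoxic cells, stayed lower in HCC1937, at 4.34, 2.69 and 2.01 CPM in E7, E8 and E9 and 0.688, 0.804 and 0.377 CPM in E31, E32 and E33 (log2 difference -2.22 ± 0.41 (SE), adjusted p = 0.00281).

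**Figure D3:**
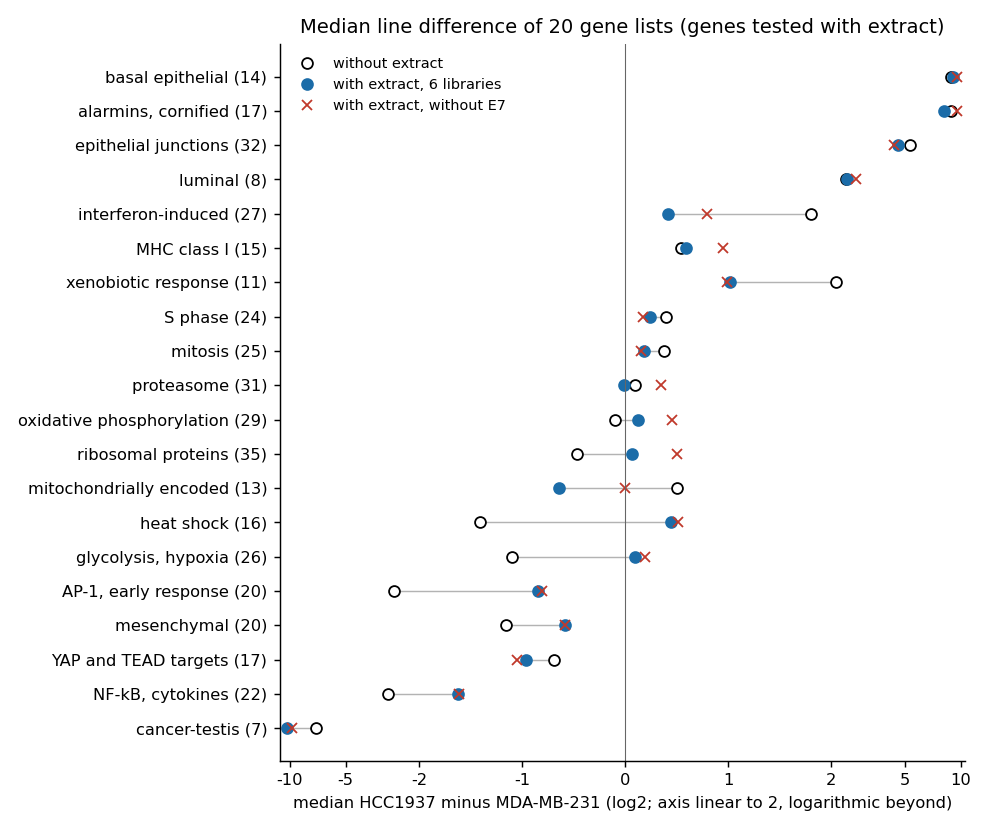
Median log2 difference HCC1937 minus MDA-MB-231 of 20 gene lists in the control libraries (open circles), the extract libraries (filled circles) and the extract libraries without E7 (crosses), on an axis that is linear to 2 and logarithmic beyond. Numbers in brackets are genes tested with extract. Epithelial lists stay at the right, the interferon list moved from 1.80 to 0.41, and the heat shock list crossed 0, from -1.41 to 0.44. Medians of lists with genes at 0 counts in a line depend on the fit.

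Heat shock genes changed sides. These chaperones refold damaged proteins and are induced by the transcription factor HSF1, which binds inverted repeats of the letters GAA. In the controls 1 of 17 genes was higher and 16 were lower in HCC1937. With extract 9 of 16 were higher and 3 lower (background 31% and 34.7%), and without E7 11 and 5 (background 41.5% and 43.8%). The median went from -1.41 to 0.44. The change towards HCC1937 passed the test for 12 of 17 genes and towards MDA-MB-231 for 1 (background 11.5% and 20.6%). Without E7 it passed for 14 and 2 (background 25.3% and 33.7%). The median change was 1.49, 1.60 with RLE scaling and 1.47 with upper quartile scaling.

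The start regions of 3 of these genes are shown because they carry the sequence the response is known for. Each run is the 250 bases before the transcription start in RefSeq on GRCh38.p14, written 5′ to 3′ on the strand of the gene, with capitals at each match of GAANNTTC or TTCNNGAA. Both patterns read the same on either strand, and matches may overlap. HSPA6 lies at chr1:161524290-161524539 (+), HSPA1B at chr6:31827488-31827737 (+) and DNAJB1 at chr19:14518398-14518647 (−).
HSPA6: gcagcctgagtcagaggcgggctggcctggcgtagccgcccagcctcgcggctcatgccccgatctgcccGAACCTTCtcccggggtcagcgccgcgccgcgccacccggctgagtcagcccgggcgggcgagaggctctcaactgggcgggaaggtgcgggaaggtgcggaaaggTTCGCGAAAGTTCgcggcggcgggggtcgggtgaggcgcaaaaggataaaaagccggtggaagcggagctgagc
HSPA1B: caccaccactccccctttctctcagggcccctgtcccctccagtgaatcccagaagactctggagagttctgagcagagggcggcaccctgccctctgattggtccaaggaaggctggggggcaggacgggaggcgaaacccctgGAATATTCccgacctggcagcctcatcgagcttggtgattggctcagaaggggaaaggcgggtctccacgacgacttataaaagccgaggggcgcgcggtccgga
DNAJB1: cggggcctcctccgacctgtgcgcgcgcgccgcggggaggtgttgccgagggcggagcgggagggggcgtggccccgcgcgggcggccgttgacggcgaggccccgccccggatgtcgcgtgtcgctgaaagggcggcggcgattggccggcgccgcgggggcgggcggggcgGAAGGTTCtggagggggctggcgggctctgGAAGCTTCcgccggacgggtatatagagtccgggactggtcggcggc
HSPA6 holds 3 matches, HSPA1B 1 and DNAJB1 2, the latter at 1 of its 3 listed starts. Of 16 genes of the list, 11 (68.8%) hold a match at any start, against 3813 of 27305 genes of the table (14%). Genes of the list that did not change sides hold matches too, at most 1 at a start for HSPB1 and for HSPB8 and 3 for HSP90AA1. A match is a run of letters and no measured binding.

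HSPA6, an HSP70 that is strictly induced by stress (chr1:161524540-161526894), was at 11.0, 10.3 and 13.1 CPM in E7, E8 and E9 and 44.8, 44.0 and 47.8 CPM in E31, E32 and E33 (log2 difference 2.01 ± 0.13 (SE), adjusted p = 3.13e-05). In the controls the order was the reverse, at 80.1 ± 0.952 CPM in MDA-MB-231 and 0.0714 ± 0.0624 CPM in HCC1937 (SD, n = 3), and the log2 difference moved by 12.03 ± 0.31 (SE), adjusted p = 1.91e-09. The HCC1937 controls held 6 HSPA6 counts in all, so that the size of this change rests on few reads. HSPA1B, the main inducible HSP70 (chr6:31827738-31830254), was at 164, 365 and 345 CPM in E7, E8 and E9 and 648, 639 and 665 CPM in E31, E32 and E33 (log2 difference 1.18 ± 0.30 (SE), adjusted p = 0.0124, and 0.63, adjusted p = 0.0677, under the offset), against 4375 ± 138 CPM in MDA-MB-231 and 193 ± 4.83 CPM in HCC1937 (SD, n = 3) in the controls. HSPA1A encodes nearly the same protein, and reads can pass from one copy to the other: MDA-MB-231 held almost none in HSPA1A, at 0.782, 2.42 and 1.70 CPM in E7, E8 and E9. The sum of both genes was 165, 367 and 346 CPM in E7, E8 and E9 and 1665, 1606 and 1703 CPM in E31, E32 and E33. In the controls that sum was 4383 ± 139 CPM in MDA-MB-231 and 450.2 ± 12.3 CPM in HCC1937 (SD, n = 3), so the lines had changed places. DNAJB1, a co-chaperone that activates HSP70, was at 201, 256 and 241 CPM in E7, E8 and E9 and 635, 641 and 659 CPM in E31, E32 and E33 (log2 difference 1.49 ± 0.14 (SE), adjusted p = 1.20e-04), against 1827 ± 38.3 CPM in MDA-MB-231 and 240.2 ± 6.43 CPM in HCC1937 (SD, n = 3) in the controls. HSPA8, the constitutive HSP70, named after its values were seen, was at 1176, 1142 and 1156 CPM in E7, E8 and E9 and 2882, 2972 and 2887 CPM in E31, E32 and E33 (log2 difference 1.35 ± 0.12 (SE), adjusted p = 9.56e-05), against -2.56 in the controls.

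Not all chaperones turned. The small heat shock proteins stayed higher in MDA-MB-231: HSPB8 at 26.1, 23.4 and 25.5 CPM in E7, E8 and E9 and 5.50, 6.15 and 4.75 CPM in E31, E32 and E33 (log2 difference -2.17 ± 0.14 (SE), adjusted p = 2.94e-05), and HSPB1 at 1493, 499 and 448 CPM in E7, E8 and E9 and 275, 259 and 273 CPM in E31, E32 and E33 (log2 difference -1.56 ± 0.45 (SE), adjusted p = 0.0204). The HSPB1 difference was -0.81 without E7, since E7 held a multiple of the level of E8 and E9. HSP90AA1, the stress-inducible HSP90, ended at nearly equal levels, at 498, 486 and 493 CPM in E7, E8 and E9 and 427, 431 and 430.1 CPM in E31, E32 and E33, after 4391 ± 75.4 CPM in MDA-MB-231 and 1489 ± 40.5 CPM in HCC1937 (SD, n = 3) in the controls. Its log2 difference with extract was -0.17 (95% interval -0.41 to 0.06), and 0.22 under the length and GC offset.

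**Figure D4:**
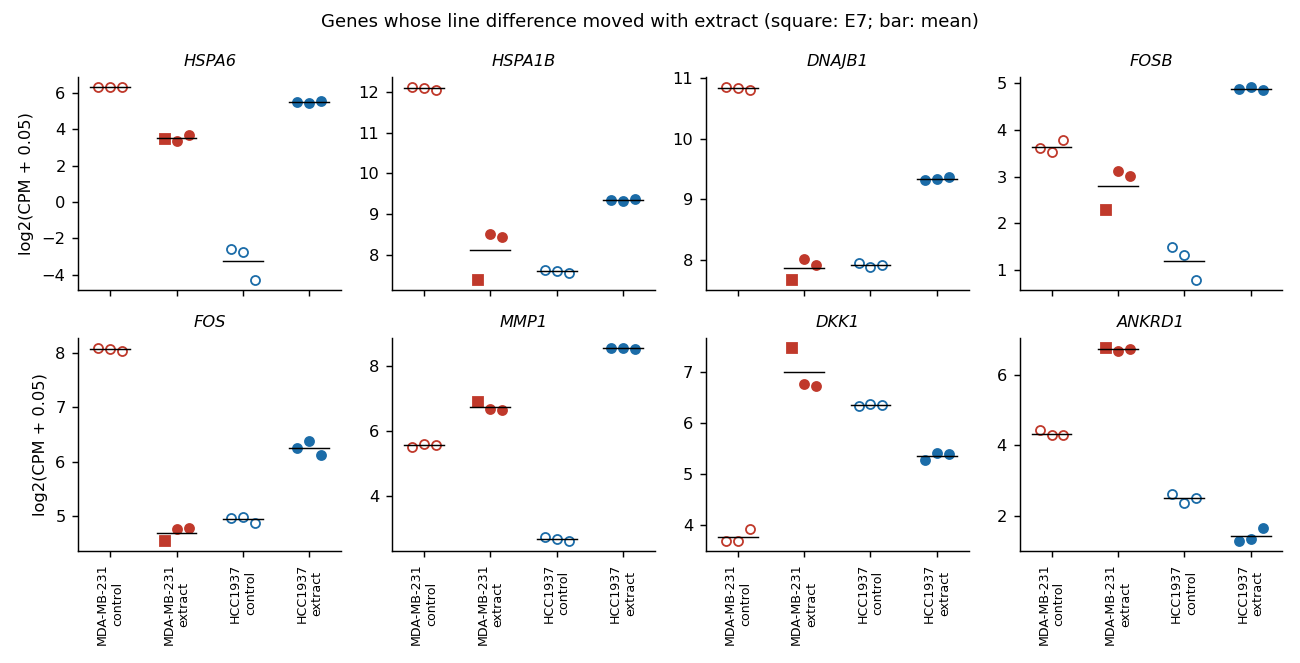
Levels of 8 genes in all 12 libraries, as log2(CPM + 0.05), for MDA-MB-231 (red) and HCC1937 (blue) without (open) and with extract (filled). Squares mark E7 and bars the mean of 3 libraries. HSPA6, HSPA1B, DNAJB1, FOSB, FOS and MMP1 were higher in MDA-MB-231 controls and higher in HCC1937 with extract, DKK1 the reverse, and ANKRD1 widened in favour of MDA-MB-231.

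Across all genes, 524 of 13103 were called in opposite directions without and with extract, 228 of them higher and 296 lower in HCC1937 with extract, and 522 of these were also called that way without E7. MMP1, the interstitial collagenase (chr11:102789919-102798160), was at 120.5, 102 and 100.4 CPM in E7, E8 and E9 and 380.3, 379 and 368 CPM in E31, E32 and E33 (log2 difference 1.83 ± 0.11 (SE), adjusted p = 2.15e-05), against 47.5 ± 1.5 CPM in MDA-MB-231 and 6.39 ± 0.263 CPM in HCC1937 (SD, n = 3) in the controls. The extract libraries of both lines lay above their control means. FOSB, an AP-1 subunit, was at 4.84, 8.59 and 8.05 CPM in E7, E8 and E9 and 29.2, 30.3 and 29 CPM in E31, E32 and E33 (log2 difference 2.05 ± 0.23 (SE), adjusted p = 2.70e-04), against 12.5 ± 1.22 CPM in MDA-MB-231 and 2.29 ± 0.572 CPM in HCC1937 (SD, n = 3) in the controls. FOS was at 23.2, 27 and 27.6 CPM in E7, E8 and E9 and 75.7, 83.4 and 69.3 CPM in E31, E32 and E33 (log2 difference 1.57 ± 0.14 (SE), adjusted p = 9.60e-05), against 268 ± 6.4 CPM in MDA-MB-231 and 30.7 ± 1.11 CPM in HCC1937 (SD, n = 3). For both FOS genes the extract libraries were below the control mean in MDA-MB-231 and above it in HCC1937. DKK1, a secreted WNT inhibitor (chr10:52314281-52317657), turned the other way, at 178, 108 and 106 CPM in E7, E8 and E9 and 38.8, 42.7 and 41.6 CPM in E31, E32 and E33 (log2 difference -1.65 ± 0.21 (SE), adjusted p = 5.47e-04), against 13.5 ± 1.27 CPM in MDA-MB-231 and 81.6 ± 0.917 CPM in HCC1937 (SD, n = 3) in the controls. The myosin gene MYH15 was at 1.28, 4.03 and 3.89 CPM in E7, E8 and E9 and 14, 16 and 14.9 CPM in E31, E32 and E33 (log2 difference 2.26 ± 0.37 (SE), adjusted p = 0.00173), against -1.59 in the controls. CYP1A1, a detoxifying enzyme that the aryl hydrocarbon receptor induces, was at 5.76, 6.45 and 7.65 CPM in E7, E8 and E9 and 10.3, 11.3 and 13.5 CPM in E31, E32 and E33 (log2 difference 0.84 ± 0.18 (SE), adjusted p = 0.00566), against -3.28 in the controls.

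The rule for the largest changes also named TXNIP, RND1 and TENT5C. TXNIP, which restrains glucose uptake, stayed lower in HCC1937 at 694, 941 and 980.4 CPM in E7, E8 and E9 and 161, 167 and 167 CPM in E31, E32 and E33 (log2 difference -2.38 ± 0.17 (SE), adjusted p = 4.45e-05), after -7.82 in the controls. RND1, a GTPase that loosens the cytoskeleton, turned from -4.67 to 1.17 ± 0.20 (SE), adjusted p = 0.00179. TENT5C, which lengthens poly-A tails, was at 2.77, 3.57 and 3.09 CPM in E7, E8 and E9 and 3.68, 3.90 and 3.96 CPM in E31, E32 and E33, a log2 difference of 0.30 ± 0.19 (SE), adjusted p = 0.189 that did not pass the test, and did under the offset (0.69, adjusted p = 0.00845), after -5.23 in the controls.

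Some differences widened, although not those of all integrins. ITGB4, the integrin subunit of hemidesmosomes, was at 14.9, 25.2 and 17.6 CPM in E7, E8 and E9 and 664, 651 and 677 CPM in E31, E32 and E33 (log2 difference 5.12 ± 0.24 (SE), adjusted p = 8.36e-06), and its difference moved by 2.37 ± 0.21 (SE), adjusted p = 1.12e-05. ITGB6, an epithelial integrin, had 1 count in the MDA-MB-231 extract libraries and stood at 7.69, 8.88 and 9.09 CPM in E31, E32 and E33, against 1 count and 34.2 CPM in the controls, and its change did not pass the test (adjusted p = 0.512). ITGA5, the alpha subunit of the fibronectin receptor, was lower in HCC1937 at 276, 423 and 407 CPM in E7, E8 and E9 and 200.3, 201 and 198 CPM in E31, E32 and E33 (log2 difference -0.86 ± 0.19 (SE), adjusted p = 0.00581), a difference that had narrowed from -2.20. Of 15 genes of MHC class I antigen presentation, 8 were higher and 2 lower in HCC1937 (background 31% and 34.7%), and without E7 12 and 3 (41.5% and 43.8%). The change passed the test towards HCC1937 for 7 and towards MDA-MB-231 for 0 of them (background 11.5% and 20.6%). Without E7 it passed for 8 and 2 (background 25.3% and 33.7%), and with the length and GC offset for 6 and 2. A change towards HCC1937 widens a gap only where HCC1937 was the higher line. In the controls 10 of the 15 genes were higher and 5 lower in HCC1937. The list median was 0.54 in the controls and 0.59 with extract. HLA-C was at 221, 180.1 and 171 CPM in E7, E8 and E9 and 732, 717 and 739 CPM in E31, E32 and E33 (log2 difference 1.96 ± 0.13 (SE), adjusted p = 2.99e-05), against 1.03 in the controls. HLA genes resemble each other and differ between donors, so that their counts are uncertain. NLRC5, their transcriptional activator, was at 5.33, 4.11 and 4.11 CPM in E7, E8 and E9 and 70.2, 68.9 and 71.0 CPM in E31, E32 and E33 (log2 difference 3.99 ± 0.14 (SE), adjusted p = 3.19e-06), much as in the controls (3.73). On the MDA-MB-231 side ANKRD1, a YAP target, was at 109, 102 and 105 CPM in E7, E8 and E9 and 2.39, 2.49 and 3.13 CPM in E31, E32 and E33 (log2 difference -5.27 ± 0.15 (SE), adjusted p = 1.87e-06), after -1.88 in the controls.

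A further set of genes named for a change towards MDA-MB-231 had 0 counts or 1 count in the HCC1937 extract libraries and small counts in the HCC1937 controls. MAGEA3 had 13 counts in the HCC1937 controls and 0 with extract, the ribosomal protein variant RPL39L 18 and 0, the kinase CAMK1 13 and 0, ARMCX2 14 and 0, the protease ADAMTS1 19 and 0, the transcription factor FOXA2 16 and 0, and the sulfotransferase CHST2 9 and 0. The fatty acid carrier FABP5 had 24 counts and 1. Levels of these genes in MDA-MB-231 with extract ran from 22.1, 26.4 and 26.7 CPM in E7, E8 and E9 for CHST2 to 208, 85.0 and 83.1 CPM in E7, E8 and E9 for FABP5. The small control counts were not particular to these genes. For 34 genes with 0 counts in all HCC1937 extract libraries and at least 20 CPM in MDA-MB-231 controls, the level in the HCC1937 controls had a median of 0.377, 0.286 and 0.316% of that in the MDA-MB-231 controls (E25, E26, E27). In the reverse direction, 59 HCC1937 genes had a median of 0% in MDA-MB-231 controls and a summed level of 0.0152 to 0.0194%. VIM was at 13.9 CPM in HCC1937 controls against 3736 in MDA-MB-231 controls, and 2.83 CPM in HCC1937 with extract. The part of this shared low level in the changes towards MDA-MB-231 was not tested.

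A gene was called alike with extract when the 95% interval of its fold difference lay within 1.5-fold, both with all 6 libraries and without E7. This held for 1180 of 13259 genes (8.90%), and 3888 (29.3%) lay within 2-fold by the same rule. In the controls 3525 of 13834 genes lay within 1.5-fold, where no fit with a library left out was asked for. Spread was larger in the MDA-MB-231 extract group, so these counts do not show how likeness changed. Of the genes alike with extract, 692 were alike in the controls too. Another 66 had been at least 2-fold higher and 43 at least 2-fold lower in HCC1937 controls. Under the length and GC offset, a check added after the data were seen, 384 of the alike genes remained alike. Lists with 4 or more alike genes were S phase (7 of 24), the proteasome (7 of 31), mitosis (6 of 25), ATF4 stress (5 of 22), heat shock (4 of 16), JAK-STAT (4 of 23) and tRNA synthetases (4 of 20). With the offset as well these counts were 1, 4, 1, 2, 3, 1 and 1, against 2.9% of all genes.

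The beta tubulin gene TUBB was among the most abundant alike genes, at 2805, 2762 and 2714 CPM in E7, E8 and E9 and 2776, 2750.0 and 2758 CPM in E31, E32 and E33. Its log2 difference was 0.02 (95% interval -0.26 to 0.31), after -0.52 in the controls. ACTN1, which cross-links actin, was at 832, 1058 and 1031 CPM in E7, E8 and E9 and 1140.4, 1109 and 1152 CPM in E31, E32 and E33 with a log2 difference of 0.24 (-0.10 to 0.58). ND5, a mitochondrially encoded subunit of complex I, was at 4199, 3022 and 3108 CPM in E7, E8 and E9 and 3092, 3115 and 3017 CPM in E31, E32 and E33 with a difference of -0.14 (-0.53 to 0.25). These 3 stayed alike by the same rule under the offset, although the sign of each turned there (-0.26, -0.28 and 0.29). The glycolytic enzyme TPI1, at 2559, 1499 and 1541 CPM in E7, E8 and E9 and 1892, 1942 and 1872 CPM in E31, E32 and E33, had been lower in HCC1937 controls, with a log2 difference of -1.08. With extract its difference was 0.06. Other abundant alike genes were the adaptor YWHAZ (-0.13), the G protein GNAS (-0.05), the ubiquitin-conjugating enzyme UBE2S (0.04), the RNA-binding protein HNRNPC (0.16) and the amino acid transporter subunit SLC3A2 (-0.09). For TPI1, YWHAZ, GNAS, UBE2S, HNRNPC and SLC3A2 the alike call was lost under the offset.

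For the cell cycle lists with all 6 libraries, the share of genes higher in HCC1937 was near that of all genes (31%). The share lower was below that of all genes (34.7%). Without E7 the share higher lay above that of all genes. Of 24 S phase genes, 8 were higher and 3 lower in HCC1937, and of 25 mitotic genes, 9 were higher and 5 lower in HCC1937, with medians of 0.25 and 0.18. Without E7 the counts were 14 and 5 in S phase and 14 and 8 in mitosis, where all genes gave 41.5% and 43.8%. With the length and GC offset they were 13 and 5 in S phase and 15 and 6 in mitosis, with medians of 0.42 and 0.57. CDC6, which licenses replication origins, was at 104, 126 and 126 CPM in E7, E8 and E9 and 127, 135 and 137 CPM in E31, E32 and E33 (log2 difference 0.18, 95% interval -0.12 to 0.48), and passed the test under the offset (0.52, adjusted p = 3.64e-04). The replicative helicase subunit MCM5 was higher in HCC1937, at 115, 106 and 103 CPM in E7, E8 and E9 and 449, 444 and 463 CPM in E31, E32 and E33 (log2 difference 2.09 ± 0.10 (SE), adjusted p = 9.44e-06). Mitotic genes split in direction. MKI67, the proliferation antigen Ki-67, was at 15.0, 37.3 and 44.2 CPM in E7, E8 and E9 and 199.7, 205 and 202 CPM in E31, E32 and E33 (log2 difference 2.66 ± 0.39 (SE), adjusted p = 9.61e-04). CDK1, the mitotic kinase, was at 201, 103 and 109 CPM in E7, E8 and E9 and 27.2, 29 and 27 CPM in E31, E32 and E33 (log2 difference -2.28 ± 0.27 (SE), adjusted p = 3.42e-04). Both differences were on the same side in the controls, at 1.45 and -1.48.

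Leaving out E7 raised the number of called genes in most lists, and in 3 families of the ribosome, the respiratory chain and the proteasome it turned few calls into calls mostly on the side of HCC1937. Of 35 cytosolic ribosomal protein genes, 2 were higher and 2 lower in HCC1937 with all 6 libraries, and 30 and 5 without E7, with medians of 0.06 and 0.51. Their summed level was 96185 CPM in E7, 42284 in E8 and 41701 in E9, and 63904 to 65115 CPM in HCC1937. HCC1937 therefore lay above E8 and E9 and below E7. Nuclear genes of oxidative phosphorylation went from 5 higher and 4 lower of 29 to 21 and 7 without E7. Proteasome subunits went from 4 and 5 of 31 to 21 and 6. For the 13 mitochondrially encoded genes the counts were 0 and 3 with and 5 and 5 without E7, at medians of -0.64 and 0.00. The background over all genes was 31% higher and 34.7% lower with all 6 libraries, and 41.5% and 43.8% without E7. With the length and GC offset and all 6 libraries the counts were 9 and 9 for ribosomal proteins, 13 and 3 for oxidative phosphorylation, 16 and 7 for the proteasome and 3 and 3 for mitochondrially encoded genes. With the offset and without E7, ribosomal proteins were 21 and 14, at a median of 0.25. The other families, in the same order, were then 20 and 7, 22 and 8, and 6 and 6. RPL8 was higher in HCC1937 in either case, at 6055, 3428 and 3183 CPM in E7, E8 and E9 and 10499.7, 10046 and 10639 CPM in E31, E32 and E33 (log2 difference 1.33 ± 0.26 (SE), adjusted p = 0.00397). PSMD3, a lid subunit of the proteasome, was likewise higher, at 164, 206 and 199 CPM in E7, E8 and E9 and 559, 538 and 556 CPM in E31, E32 and E33 (log2 difference 1.56 ± 0.13 (SE), adjusted p = 9.00e-05). CYC1, which encodes cytochrome c1, was at 813, 626 and 575 CPM in E7, E8 and E9 and 1201, 1177 and 1258 CPM in E31, E32 and E33 (log2 difference 0.88 ± 0.15 (SE), adjusted p = 0.00209). ND2, a complex I subunit, was lower in HCC1937 with E7 and without it, at 21173, 5933 and 6108 CPM in E7, E8 and E9 and 3451, 3431 and 3345 CPM in E31, E32 and E33 (log2 differences -1.66 and -0.81).

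**Figure D5:**
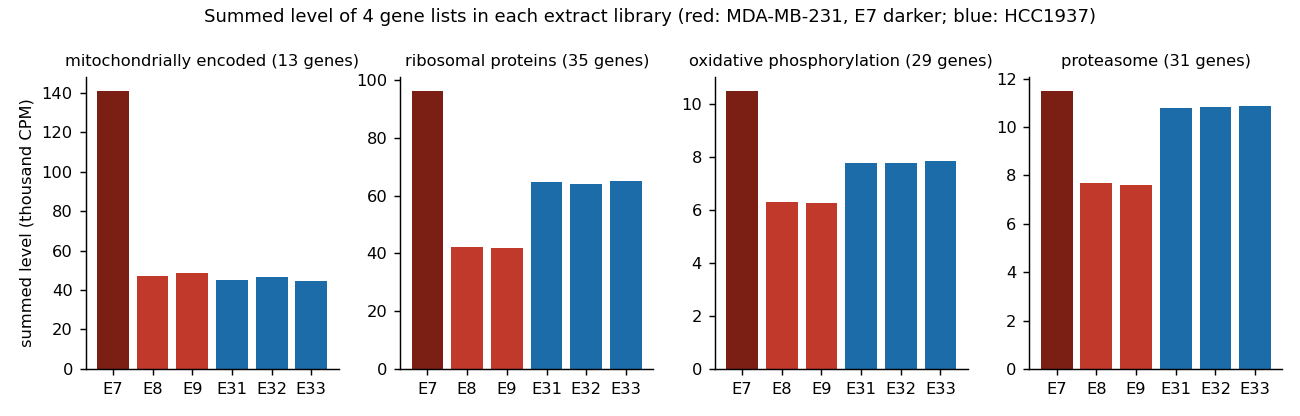
Summed levels, in units of 1000 CPM, of 4 gene lists in each extract library: MDA-MB-231 in red, with E7 darker, and HCC1937 in blue. E7 is the highest of the MDA-MB-231 libraries in every panel, and for ribosomal proteins, nuclear oxidative phosphorylation genes and the proteasome the HCC1937 libraries lie between E7 and the pair E8 and E9.

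The title of the study names JAK2, ROCK1, ROCK2 and PIK3CA, genes of cytokine, cytoskeletal and growth factor signalling. With extract all 4 were low in both lines. JAK2, the kinase of cytokine receptors, was at 0.854, 1.42 and 1.07 CPM in E7, E8 and E9 and 0.243, 0.683 and 0.566 CPM in E31, E32 and E33 (log2 difference -1.16 ± 0.43 (SE), adjusted p = 0.0495). This difference lost its call under the length and GC offset (adjusted p = 0.373). ROCK1, a kinase that contracts actomyosin, was at 4.62, 2.42 and 3.71 CPM in E7, E8 and E9 and 8.78, 6.43 and 7.43 CPM in E31, E32 and E33 (log2 difference 1.12 ± 0.26 (SE), adjusted p = 0.00798). ROCK2 was at 1.99, 3.03 and 3.31 CPM in E7, E8 and E9 and 10.2, 8.16 and 10.7 CPM in E31, E32 and E33 (log2 difference 1.80 ± 0.24 (SE), adjusted p = 5.90e-04). For both kinases every HCC1937 library lay above every MDA-MB-231 library. PIK3CA, the catalytic subunit of PI3-kinase, was at 2.70, 4.80 and 4.34 CPM in E7, E8 and E9 and 5.30, 5.95 and 5.36 CPM in E31, E32 and E33, a log2 difference of 0.49 ± 0.24 (SE), adjusted p = 0.119, which did not pass the test with E7 or without it (adjusted p = 0.172) and did under the offset (1.26, adjusted p = 9.63e-04). The control levels were 66.9 ± 1.92 CPM in MDA-MB-231 and 68.3 ± 4.24 CPM in HCC1937 (SD, n = 3) for ROCK1 and 42 ± 1.39 CPM in MDA-MB-231 and 31.6 ± 2.16 CPM in HCC1937 (SD, n = 3) for PIK3CA. The change of the line difference passed the test for ROCK1 (1.08), ROCK2 (0.64) and PIK3CA (0.86), each towards HCC1937, and not for JAK2 (-0.35, adjusted p = 0.574).

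Around these genes, 3 of 23 JAK-STAT genes were higher and 10 lower in HCC1937, and 8 and 5 of 23 PI3-kinase and AKT genes. The background over all genes was 31% and 34.7%. Without E7 the counts were 7 and 13, and 12 and 10, with a background of 41.5% and 43.8%. LIFR, a receptor of the IL-6 family, was nearly private to MDA-MB-231, at 6.4, 8.63 and 11.8 CPM in E7, E8 and E9 and 0.283, 0.201 and 0.453 CPM in E31, E32 and E33 (log2 difference -4.79 ± 0.39 (SE), adjusted p = 6.71e-05). SOCS2, a feedback inhibitor of cytokine signalling, was at 15.4, 16.4 and 13.6 CPM in E7, E8 and E9 and 0.364, 0.362 and 0.0754 CPM in E31, E32 and E33 (log2 difference -5.79 ± 0.38 (SE), adjusted p = 3.00e-05). PIK3R3, a regulatory subunit of PI3-kinase, was higher in HCC1937, at 2.42, 4.95 and 3.98 CPM in E7, E8 and E9 and 26.8, 26.5 and 27.8 CPM in E31, E32 and E33 (log2 difference 2.82 ± 0.25 (SE), adjusted p = 1.07e-04). The kinase AKT1 was at 287, 355 and 337 CPM in E7, E8 and E9 and 333, 326 and 324 CPM in E31, E32 and E33 and counted as alike (0.03, 95% interval -0.27 to 0.33), though not under the offset (-0.66).

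Genes of the xenobiotic response, through which cells handle plant compounds, were higher in HCC1937 at 7 of 11 and lower at 0 (background 31% and 34.7%). Without E7 it was 8 and 0 (background 41.5% and 43.8%). ALDH1A3, an aldehyde dehydrogenase, was at 12.9, 21.6 and 22.5 CPM in E7, E8 and E9 and 904, 938 and 914 CPM in E31, E32 and E33 (log2 difference 5.61 ± 0.27 (SE), adjusted p = 9.00e-06). ALDH3A1, a detoxifying relative, was at 0.142, 0.23 and 0.179 CPM in E7, E8 and E9 and 65.9, 59.8 and 64.5 CPM in E31, E32 and E33 (log2 difference 8.35 ± 0.19 (SE), adjusted p = 1.34e-06). CYP1B1 was at 2.35, 3.11 and 3.27 CPM in E7, E8 and E9 and 29.5, 30.9 and 30.5 CPM in E31, E32 and E33 (log2 difference 3.38 ± 0.16 (SE), adjusted p = 9.04e-06). The 3 differences stood in the controls as well, at 5.48, 9.04 and 2.68. AHRR, the repressor of the aryl hydrocarbon receptor, overlapped between the lines, at 0.996, 1.61 and 1.79 CPM in E7, E8 and E9 and 0.243, 1.73 and 1.21 CPM in E31, E32 and E33.

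Markers of other cell types were counted to see what else the cultures could hold. Of 8 fibroblast markers 2 passed the filter, with a summed level of 5.19 to 9.75 CPM in MDA-MB-231 and 6.63 to 8.19 CPM in HCC1937, and DCN had 0 counts in all 6 libraries. Of 7 endothelial markers 4 passed, 3 of them higher in HCC1937, with summed levels of 0.925 to 3.18 and 18.2 to 20.5 CPM. Of 10 immune markers 3 passed. CD68, a lysosomal protein found in many cell types, made up most of their sum, at 526, 433 and 426 CPM in E7, E8 and E9 and 179, 176 and 175 CPM in E31, E32 and E33, while the leukocyte marker PTPRC had 0 counts in MDA-MB-231 and 5 in HCC1937. The part of other cells in the line differences was not tested.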

How the data were processed

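The authors made libraries from 30 ng of RNA and captured mRNA on poly-T beads, per the labels' protocols, although the kit they name is for stranded total RNA. The submitters' processing notes name FastQC 0.12.1, fastp 0.23.4, Salmon 1.10.3, the build GRCh38, DESeq2 and R 4.4.1. The authors deposited 1 table of estimated counts per gene (expected counts, not normalized) for all 12 libraries. Of its values 52.8% were not whole, and they were rounded, which moved no value by more than 0.5. The only unnamed row, with 0 reads, was left out of 19517.

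Genes were filtered with filterByExpr (minimum count of 10) and scaled with TMM, and CPM values are scaled to the TMM library size. Line differences were tested with edgeR 4.0.16 (quasi-likelihood F test, Benjamini-Hochberg over all genes tested, threshold 0.05) on the 6 extract libraries, on the 6 controls, and over all 12 libraries for the change of the line difference (interaction term). Alternatives used DESeq2 1.42.0, limma 3.58.1 (voom with quality weights), RLE and upper quartile scaling, other filters, a length and GC offset per library (mgcv 1.9.3, R 4.3.3, reference transcripts for 19172 genes), and leaving out each library. For a gene with 0 counts in a group, a fold is a bound from 3 counts over the group. With 1 to 3 counts it is a ratio with an exact 95% counting interval. Intervals and bounds cover counting error only. Summaries and figures used Python 3.11.15, pandas 2.3.3, scipy 1.17.1 and matplotlib 3.10.9. The test scripts were tested on simulated data.

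Genes named are the 4 of the study title, and the 10 largest differences in each direction among genes called with and without E7 whose groups do not overlap, with a mean of at least 5 CPM. The rule also takes the 5 largest changes in each direction, the 5 leading genes called in opposite directions, the 10 most abundant alike genes, and per list its first 3 genes and 4 largest called differences. HSPA8 and SNAI1 were added after their values were seen. Some genes that the rule takes are not reported here. The comparison, the 43 gene lists and the rule were chosen with earlier results of these data known.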

Additional observations from a re-analysis of the deposited data

Results flagged for a closer look

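Each gene below was picked out because the difference between the lines changed with extract, by the test of the change over all 12 libraries (edgeR interaction term, adjusted p under 0.05). Values are changes of the log2 difference HCC1937 minus MDA-MB-231, with extract minus without. Of all genes tested, 32.1% passed this test.

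Of the genes in the study title, ROCK1 changed by 1.08, ROCK2 by 0.64 and PIK3CA by 0.86. Of the genes named for large changes, HSPA6 changed by 12.03, RND1 by 5.78, HSPA1B by 5.66, TENT5C by 5.46, TXNIP by 5.38 and FOSB by 4.47. MMP1 changed by 4.70 and MYH15 by 3.77, while DKK1 changed by -4.27.

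Genes that ended alike had changed as well: TPI1 by 1.07, TUBB by 0.48, ACTN1 by 0.40 and ND5 by -0.86.

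For 10 genes a group held 0 counts or 1 count, and the change was computed with that group set to 3 counts, a setting chosen after seeing the data. HCC1937 was the empty group with extract for 9 of them: MAGEA3 (-3.24), MAGEA12 (-3.61), RPL39L (-3.56), CAMK1 (-3.02), CHST2 (-2.84), ARMCX2 (-2.36), ADAMTS1 (-1.98), FOXA2 (-1.78) and, with 1 count, FABP5 (-3.97). For ANO1 (0.79) it was MDA-MB-231. The shared low level in HCC1937 controls given with these genes lies beside these values, and its part was not tested.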

How the results depend on the processing

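Of 122 counts of genes recomputed under the alternatives, 106 stayed within 1.5 times the reported count and 16 moved. Genes moved towards HCC1937, reported as 1630, numbered 3592 with limma voom, 2565 with the length and GC offset and 3895 with the offset and without E7, a setting chosen after seeing the data. Genes moved towards MDA-MB-231, reported as 2908, numbered 5026 with limma voom. Alike genes, reported as 1180, numbered 3011 with limma voom, 2183 with the offset, 1962 with all 12 libraries in 1 model, 3304 with the offset and without E7, and 3888 at 2-fold. The reported count and that at 2-fold ask for the margin both with all 6 libraries and without E7. The other alike counts here ask for it in 1 fit only, a looser rule. Leaving out each library in turn gave 3486 to 5504 genes higher and 3891 to 5810 lower with extract, 6008 to 6069 and 6026 to 6054 without, 1344 to 3577 moved towards HCC1937, 2345 to 4763 towards MDA-MB-231 and 619 to 3039 alike. The highest of these with extract, moved and alike are those without E7. Without E8 the alike count was 776, and without E31, E32 or E33 it was 619, 628 or 632. The cause of these moves was not tested.

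Named genes counted as kept with extract in 2713 of 2892 recomputed values and for the change in 1627 of 1776. A sign that turned without passing the test in either fit, as for YAP1 under the offset, was counted as kept. Signs turned, with the test passed in the reported fit, the alternative or both, in 31 and 5. With the offset, first with and then without E7, these were ND5 (0.29 and 0.28), TUBB (-0.26 and -0.20), TPI1 (-0.31 and -0.17), YWHAZ (0.51 and 0.57), ACTN1 (-0.28 and -0.24), ISG15 (-0.34 and -0.26), IFIT1 (0.11 and 0.18), TAP1 (-0.0641 and -0.11), AKT1 (-0.66 and -0.60), HSP90AA1 (0.22 and 0.25), RPL7 (0.0524 and 0.18) and PSMD1 (0.39 and 0.49). With the offset and E7 they were IL6ST (0.034) and NDUFB7 (-0.0121), and with the offset and without E7 UBE2S (-0.0729) and LDHA (0.46). Leaving out each library in turn gave AKT1 -0.0746 to 0.10 and GNAS -0.16 to 0.17, and limma voom gave GNAS 0.17. The change turned for SLC3A2 and PSMA1 when a library was left out (-0.0955 to 0.12 and -0.35 to 0.24), for PSMA1 also with limma voom (0.20) and with the offset and without E7 (0.20), and for B2M with the offset and without E7 (0.33). List medians stayed within the spread in 519 of 670 values, but the moves were concentrated in some settings. With the length and GC offset 27 of 42 medians moved, and 24 of 42 with the offset and without E7. Leaving out E7 alone moved 18 of 42. No paired analysis was possible because the groups share no replicate numbers. Depth limits genes near 3 counts per group, and line, medium and concentration cannot be told apart.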

Other observations

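Under extract most other lists held genes on both sides. Over all genes 31% were higher and 34.7% lower in HCC1937, and 41.5% and 43.8% without E7. Collagen and matrix genes were 10 higher and 4 lower of 19 (11 and 6 without E7) in HCC1937, actomyosin genes 7 higher and 8 lower of 24 (9 and 15 without E7), and TGF-beta genes 8 higher and 7 lower of 20 (11 and 8 without E7). Growth factors and receptors of the EGF family were 6 higher and 7 lower of 14 (6 and 8 without E7). Among stress and metabolic lists, targets of the stress factor ATF4 were 5 higher and 11 lower of 22 (8 and 13 without E7), tRNA synthetases 3 higher and 11 lower of 20 (6 and 13 without E7) and p53 targets 4 higher and 9 lower of 16 (5 and 10 without E7). Genes of the oxidative stress factor NRF2 were 8 higher and 3 lower of 19 (13 and 4 without E7) and spliceosome genes 10 higher and 3 lower of 25 (17 and 6 without E7). Integrins were 6 higher and 6 lower of 20 (6 and 10 without E7), chaperones of the endoplasmic reticulum 6 higher and 4 lower of 16 (10 and 5 without E7) and apoptosis genes 8 higher and 6 lower of 19 (10 and 9 without E7). Cholesterol synthesis genes were 7 higher and 8 lower of 23 (11 and 11 without E7) and fatty acid synthesis genes 3 higher and 4 lower of 13 (4 and 8 without E7). Of the metallothioneins, which bind metal ions, the count was 1 higher and 3 lower of 5 (2 and 3 without E7). None of these counts was tested as a list.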
